A study of Homo sapiens with 30 samples.

Results

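Gene expression at day 9 was compared with day 7 of placode induction of H9, an established line of human embryonic stem cells. The comparison rests on the 6 arrays labelled PIP day 7 and PIP day 9, with 3 biological replicates at each day, out of 30 Illumina bead arrays in all. The other 24 arrays cover day 1, day 3, PIP at days 5 and 11, and the parallel course labelled NSB at days 5, 7, 9 and 11, again with 3 arrays a group. The labels spell out neither NSB nor PIP. From knowledge of the study, NSB is neural induction with Noggin, which blocks BMP ligands, and SB431542, which blocks the receptors of activin and Nodal. PIP, the placode protocol, starts the same way and withdraws Noggin early. Both courses start from the same stem cell line without a transgene or selection named in the labels, and the arrays read total RNA of whole cultures, so fewer cells of a type and less RNA per cell cannot be told apart.

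Cranial placodes are thickenings of the embryonic head ectoderm that give rise to the lens, the inner ear, the olfactory epithelium, the anterior pituitary and most cranial sensory ganglia. They arise from a common preplacodal field at the edge of the neural plate, in which EYA proteins act as transcriptional coactivators, next to ectoderm marked by TFAP2, DLX and GATA factors. BMP signals favour the non-neural fates of this border, FGF signals take part in placode induction, and Notch signals hold back neuronal differentiation.

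All values are normalized log2 intensities, background corrected and quantile normalized over the 30 arrays. A difference of 1 on this scale is a 2-fold change, and each difference is day 9 minus day 7 with its standard error (SE) from limma, a linear model with a moderated test. A gene was called at a Benjamini-Hochberg adjusted p under 0.05, and a probe counted as detected on an array where its detection p was under 0.05. Median unnormalised signals were 64.9 to 71.5 at PIP day 7 and 62.4 to 68.5 at PIP day 9, with 34.8% to 35.8% of probes detected on these 6 arrays. Across genes, arrays within each of the 2 groups correlated at 0.995 to 0.997 and arrays of day 7 with arrays of day 9 at 0.972. The NSB day 7 group spread most, with correlations down to 0.9876 for its replicates 1 and 2. Day 9 stood apart from its neighbours in both courses on the second principal component of all 30 arrays, which held 18% of the variance. The PIP arrays lay there at 15.3 to 15.8 on day 7, at -27.8 to -27.4 on day 9 and at -7.77 to -5.68 on day 11. The NSB arrays moved the same way, from between 16.75 and 17.96 on day 7 to between -25.1 and -23.4 on day 9. On day 11 they lay between -0.81 and 1.19. On the first component (47.2%) day 9 lay between days 7 and 11 in both courses. PIP stood there at 12.2 to 13.79, then 21.65 to 22.23, then 38.07 to 40.06. NSB stood at 12.93 to 15.97, then 25.4 to 27.3, then 44.84 to 46.83. No slide, scan or culture batch is named in the files, so the day and any handling that differed between days cannot be told apart.

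The labelled identity was checked against defining markers. All 8 measured placode and non-neural ectoderm markers (TFAP2A, TFAP2B, DLX3, DLX5, GATA3, EYA1, EYA2 and SIX4) were detected on all 6 arrays, and their summed linear intensity went from between 5761 and 6097 at day 7 to between 6647 and 6924 at day 9. All 5 neural ectoderm markers (PAX6, LHX2, SIX3, RAX and OTX2) were detected on all 6 arrays too, with sums of 11320 to 11900 and then 9766 to 10290. The endoderm markers SOX17 and FOXA2, the blood markers PTPRC and HBE1, the epidermal keratins KRT5, KRT14 and KRT1 and the neural crest factor FOXD3 were detected on none of the 6 arrays. The endoderm marker AFP and the endothelial marker PECAM1 were detected on none of them either. The crest and otic factor SOX10 was detected on all 6 arrays, with means of 7.37 at day 7 and 6.95 at day 9. Some other markers of these lineages were higher at day 9. The endoderm marker APOA1 and the endothelial cadherin CDH5 went from no day 7 array to all 3 day 9 arrays with detection, at least 1.16-fold and 1.20-fold higher (adjusted p = 3.75e-04 and 2.07e-07). The endothelial receptor KDR, detected on all 6 arrays, rose by 0.46 ± 0.14 (adjusted p = 0.0104), which was not called with median scaling on all probes. The summed linear intensity of the 4 endoderm markers went from between 110.7 and 112.8 to between 121.3 and 136.3, and that of the 5 endothelial and blood markers from between 155.1 and 165.5 to between 193.2 and 202.8. Of the 8 endothelium and blood genes tested as a list, 3 rose (37.5%) and 2 fell (25%), against 22.5% and 23.9% of all genes. With median scaling on all probes 1 rose and 2 fell. The part of endoderm, endothelial, blood or neural crest cells in the results was not tested. NEUROD1 was not analysed here, and NEUROG1, a sensory proneural gene, was below the detection filter.

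Between day 7 and day 9 the PIP cultures changed broadly. Of 13488 genes tested, 6265 were called (46.4%), 3035 of them higher at day 9 (22.5%) and 3230 lower (23.9%). The change was at least 2-fold for 391 genes that rose (2.90%) and 336 that fell (2.49%). The balance of directions depends on the scaling, since genes that rose made up 48.4% of calls here, 33.9% when arrays were scaled to the median of all probes and 56.5% when scaled to the median of probes detected on all arrays. The values of the 2 groups did not overlap for 7527 genes (55.8%). Counts within gene lists are read against the shares of all genes, 22.5% higher and 23.9% lower.

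The largest rise was in HES5, a basic helix-loop-helix repressor that Notch signalling induces in neural progenitors. HES5 read 5.79, 6.26 and 5.94 on the 3 day 7 arrays and 10.59, 10.83 and 10.96 on the 3 day 9 arrays, a 27.9-fold rise (4.80 ± 0.16, adjusted p = 7.34e-19). It was detected on all 6 arrays, and every day 9 array lay far above every day 7 array. Its promoter is shown because it carries, on both strands, the letters read by RBPJ, the DNA-binding partner of the Notch receptor. The 300 bases are from RefSeq (GRCh38.p14, chr1:2530214-2530513, minus strand, from 250 bases before the start to 50 after it), with GTGGGAA on either strand in capitals.
HES5: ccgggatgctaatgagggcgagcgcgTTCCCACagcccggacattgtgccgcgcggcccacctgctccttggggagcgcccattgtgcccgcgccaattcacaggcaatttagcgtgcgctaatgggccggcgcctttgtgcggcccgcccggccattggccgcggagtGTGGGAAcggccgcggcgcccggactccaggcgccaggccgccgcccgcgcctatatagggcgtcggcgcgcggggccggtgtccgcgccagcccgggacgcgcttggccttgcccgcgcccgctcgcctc
The word GTGGGAA occurs 2 times, 224 bases before the start on the opposite strand and 81 bases before it on the gene's strand. It is held by 6.25% of the 35116 RefSeq promoters of this length, so a match on its own is common, and binding was not measured.

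The next largest rises included genes of growth factor binding, membrane and cytoskeleton. IGFBP3, a secreted protein that binds insulin-like growth factors, read 7.02, 6.61 and 7.00 at day 7 and 10.69, 10.67 and 10.94 at day 9, a 14.8-fold rise (3.89 ± 0.12, adjusted p = 1.33e-19). ANXA1, a calcium-dependent phospholipid-binding protein, read 8.55, 7.97 and 8.16 at day 7 and 12.38, 12.04 and 11.83 at day 9, 14.5-fold higher (3.86 ± 0.16, adjusted p = 5.22e-17). ARHGDIB, an inhibitor of nucleotide release from small GTPases, read 6.13, 6.17 and 6.04 at day 7 and 9.57, 9.64 and 9.47 at day 9 (3.45 ± 0.09, adjusted p = 1.94e-21). In all of these the lowest day 9 array lay far above the highest day 7 array. CDH10, a neuronal cadherin, rose by 3.33 ± 0.12, LAMP5, a membrane protein of neurons, by 3.14 ± 0.14, and EMP1, an epithelial membrane protein, by 3.13 ± 0.09 (adjusted p = 3.67e-18, 1.24e-16 and 6.11e-20). VGF, the precursor of secreted neuropeptides, read 8.23, 8.08 and 8.17 at day 7 and 11.17, 11.08 and 11.21 at day 9 (2.99 ± 0.09, adjusted p = 3.19e-20). SULF1, an enzyme that trims sulfates from heparan sulfate outside the cell, rose by 2.84 ± 0.09, and TAGLN, an actin-binding protein of smooth muscle, by 2.82 ± 0.09 (adjusted p = 6.53e-19 and 6.81e-19). ANGPT2, a ligand of the TIE2 receptor, rose by 2.84 ± 0.14 (adjusted p = 1.17e-15), more than in NSB, where it rose by 1.28 (adjusted p of the difference 2.43e-06). LIM2, a membrane protein of lens fibres, was detected on no day 7 array and on all 3 day 9 arrays, where it read 7.93, 7.67 and 8.19. Its rise was at least 6.58-fold, taking the lowest detected level on each day 7 array as the floor (adjusted p = 3.54e-13).

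**Figure D1:**
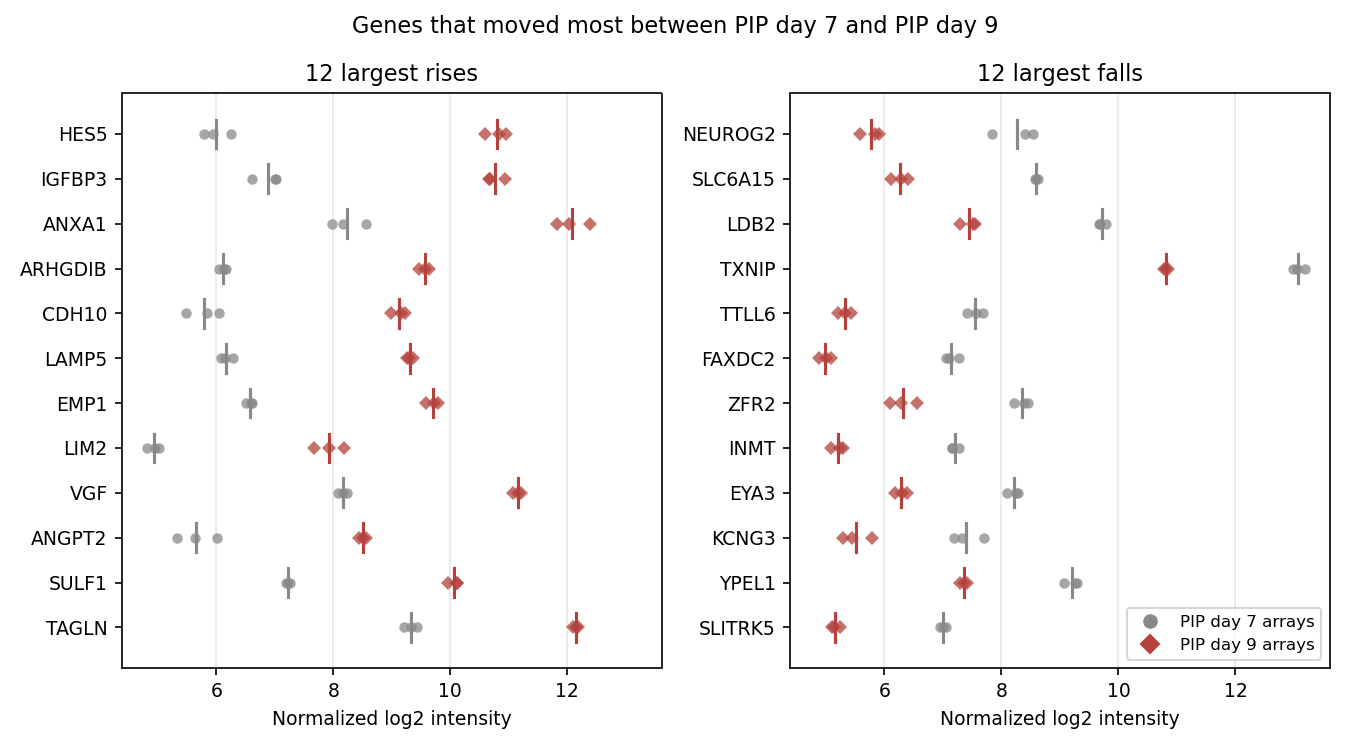
Normalized log2 intensity on each of the 3 PIP day 7 arrays (grey circles) and 3 PIP day 9 arrays (red diamonds) for the 12 largest rises and the 12 largest falls, with a vertical bar at each group mean. The 2 days do not overlap for any of the 24 genes, from HES5 (mean 5.99 at day 7, 10.80 at day 9) to SLITRK5 (7.00 and 5.16).

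The falls were smaller than the rises at the top of the ranking. NEUROG2, a proneural factor that commits progenitors to neurons, read 7.84, 8.55 and 8.41 at day 7 and 5.58, 5.83 and 5.90 at day 9, a 5.64-fold fall (-2.49 ± 0.16, adjusted p = 4.02e-13). SLC6A15, a transporter of neutral amino acids, read 8.59, 8.57 and 8.63 at day 7 and 6.40, 6.11 and 6.28 at day 9 (-2.33 ± 0.12, adjusted p = 3.29e-15). LDB2, a cofactor of LIM-domain transcription factors, read 9.66, 9.79 and 9.68 at day 7 and 7.55, 7.52 and 7.28 at day 9 (-2.26 ± 0.08, adjusted p = 4.98e-18). All 3 genes were still detected on every day 9 array. The remaining largest falls were in TTLL6, which adds glutamate chains to tubulin (-2.23 ± 0.10, adjusted p = 1.41e-16), in ZFR2 (-2.04 ± 0.16, adjusted p = 4.49e-11), in INMT, a methyltransferase of indole amines (-1.99 ± 0.11, adjusted p = 4.05e-14), in EYA3 (-1.93 ± 0.12, adjusted p = 3.78e-13), in KCNG3, a potassium channel subunit (-1.89 ± 0.15, adjusted p = 4.76e-11), in YPEL1 (-1.85 ± 0.09, adjusted p = 2.52e-15) and in SLITRK5, a neuronal membrane protein (-1.84 ± 0.12, adjusted p = 6.01e-13). FAXDC2 read 7.05, 7.10 and 7.27 at day 7 and was detected on no day 9 array, a fall of at least 3.76-fold (adjusted p = 1.09e-15).

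TXNIP, which binds thioredoxin and restrains glucose uptake, was also among the 12 largest falls. It read 12.98, 13.19 and 13.05 at day 7 and 10.85, 10.82 and 10.78 at day 9, 4.78-fold lower at day 9 (-2.26 ± 0.08, adjusted p = 1.17e-18). Its paralog ARRDC4, named as one of the largest changes of the NRF2 and redox list, fell by 1.68 on the log2 scale (adjusted p = 2.85e-11). Both genes are textbook targets of the glucose-responsive factor MLXIPL and its relative MondoA, and MLXIPL itself read 6.51 ± 0.09 and then 5.39 ± 0.02 (SD, n = 3 each; -1.12 ± 0.14, adjusted p = 1.09e-07). A TXNIP promoter is shown because it holds the letters of their binding element (RefSeq, GRCh38.p14, chr1:145996530-145996829, minus strand, the same window as above). There are 2 promoters listed for TXNIP, and the first that holds the element was taken. The capitals mark the carbohydrate response element, a pair of E-box-like half-sites with a fixed spacer, searched on both strands.
TXNIP: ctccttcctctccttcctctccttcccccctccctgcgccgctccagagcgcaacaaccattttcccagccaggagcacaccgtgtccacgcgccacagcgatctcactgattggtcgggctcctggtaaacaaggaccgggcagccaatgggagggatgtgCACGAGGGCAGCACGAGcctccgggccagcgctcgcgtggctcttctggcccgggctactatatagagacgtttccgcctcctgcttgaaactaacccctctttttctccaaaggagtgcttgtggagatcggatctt
The element lies 88 bases before the start, and 0.501% of the 35116 promoters hold it. Factor activity was not measured.

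Some of these genes turned back near or past their day 7 level by day 11, and others went on. PIP day 11 is a separate group that shares no array with day 7 or day 9, but the comparisons with it share the day 9 or day 7 arrays, so their values are set side by side. HES5 went from 5.99 to 10.80 and 11.83, and SULF1 from 7.23 to 10.06 and 10.95, so both were highest at day 11. VGF went from 8.16 to 11.15 and back to 8.17, and TXNIP from 13.07 to 10.82 and 13.49. NEUROG2 likewise dipped from 8.26 to 5.77 and stood at 8.72 at day 11, and LDB2 went from 9.71 to 7.45 and 9.64. IGFBP3, ANXA1, CDH10 and LAMP5 had fallen from their day 9 level but were still higher at day 11 than at day 7, by 2.25, 2.80, 1.83 and 1.86 (limma adjusted p = 1.49e-14, 4.81e-14, 1.34e-12 and 7.81e-12). TTLL6 stayed low, at 7.55, 5.32 and 5.26. Over all genes, 6417 were called between day 11 and day 9 (47.6%), 3227 higher at day 11 (23.9%) and 3190 lower (23.7%), and 5217 between day 11 and day 7 (38.7%). Day 9 differed from the mean of days 7 and 11 for 6597 genes (48.9%).

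**Figure D2:**
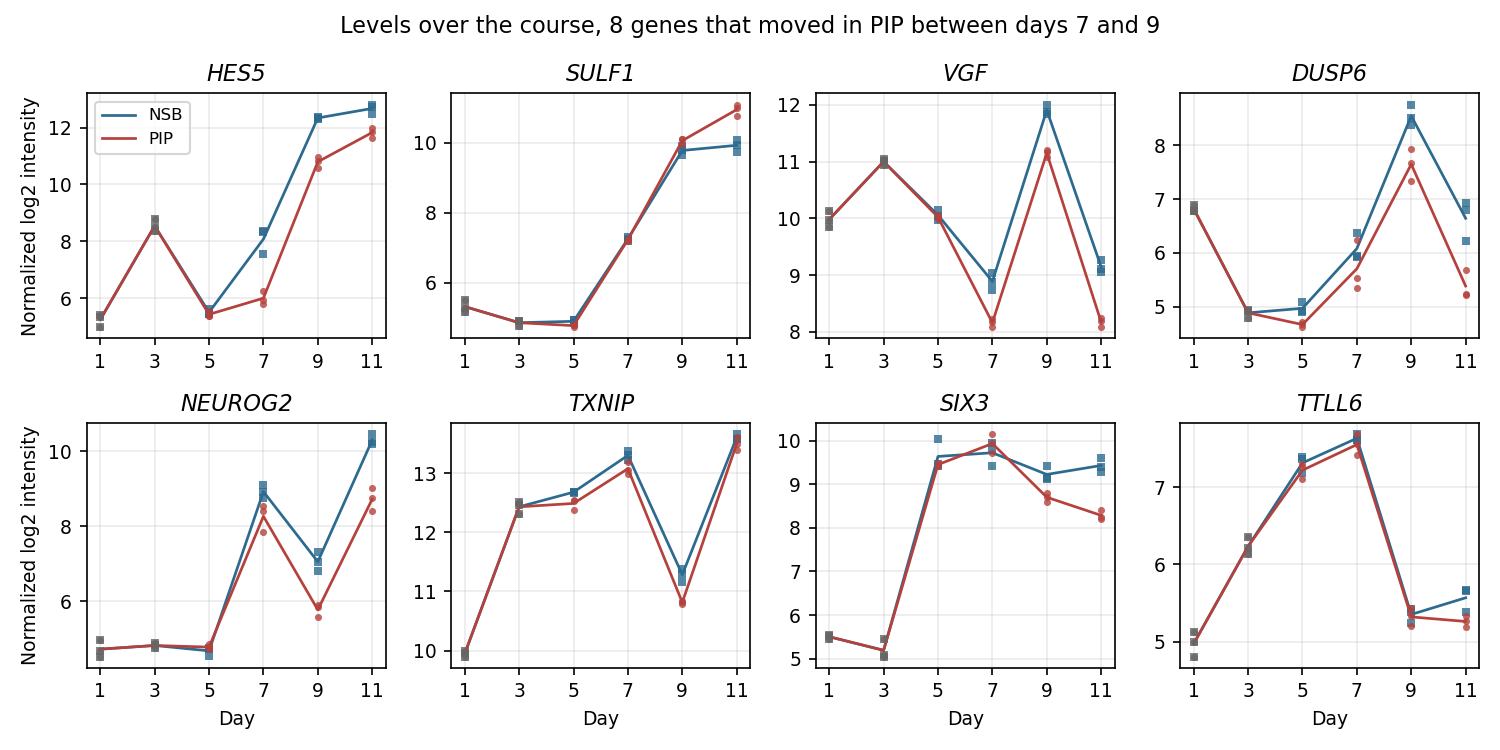
Normalized log2 intensity of 8 genes on every array over days 1 to 11, with lines through the means of PIP (red circles) and NSB (blue squares); grey points at days 1 and 3 are shared by both courses. HES5 and SULF1 rise again after day 9, VGF, DUSP6, NEUROG2 and TXNIP turn back toward their day 7 level, and SIX3 and TTLL6 stay low in PIP.

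The same step was also measured in the NSB course, which shares no array with PIP at these days. Both courses share the cell line, the days and the normalization, so the 2 steps are not independent of each other. Handling common to a day cannot be told apart from the day in either course. Much of the step ran in parallel. NSB day 9 differed from NSB day 7 for 6443 genes (47.8%), 3108 of them higher (23.0%) and 3335 lower (24.7%). The 2 steps correlated at r = 0.828 across the 13488 genes, which are not independent replicates, and 4608 genes were called in both, 4521 of them in the same direction. These 4608 are 73.6% of the PIP calls and 71.5% of the NSB calls. Of the 727 PIP calls of at least 2-fold (5.39%), 677 were called in the same direction in NSB. All of the 12 largest PIP rises and 12 largest falls were called in the same direction in NSB, and HES5, for example, rose there by 4.26 and TXNIP fell by 2.01.

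The difference between the 2 steps was tested directly. It was called for 864 genes (6.41%), of which 519 moved higher in PIP than in NSB (3.85%) and 345 lower (2.56%). The direction of this split depends on scaling. Genes higher in PIP made up 60.1% of calls, 23.7% with median scaling on all probes and 77.7% with median scaling on probes detected on all arrays, where the median of all genes moved by -0.18 and 0.10 from 0.00. Without replicate 1 of NSB day 7 the count was 1433, with 731 higher and 702 lower. Without the day 3 and day 5 groups, which also feed the estimate of the spread, it was 535, with 341 higher and 194 lower. For 61 genes a call was higher in PIP and lower in NSB, and for 26 the reverse.

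The 8 genes with the largest step in favour of PIP were all far from their NSB change. VGLL2, a cofactor of TEAD transcription factors, was detected on no PIP day 7 array and read 7.40, 7.42 and 7.40 at day 9, at least 4.58-fold higher, while it was detected on no NSB array of these days (difference between steps 2.68, adjusted p = 3.06e-14). CGA, the hormone subunit shared by pituitary and placental glycoprotein hormones, read 6.99, 6.33 and 6.89 at day 7 and 8.97, 8.65 and 9.12 at day 9. Its NSB change was -0.11 and the difference 2.29 (adjusted p = 3.22e-05). HAND1, a basic helix-loop-helix factor of extraembryonic and cardiac tissues, read 6.76, 6.65 and 6.72 at day 7 and 8.99, 8.68 and 8.79 at day 9 and was detected on no NSB array (difference 2.20, adjusted p = 2.09e-11). ISL1, a LIM homeobox factor of sensory and motor neurons, read 7.92, 7.97 and 7.86 at day 7 and 10.16, 10.03 and 9.98 at day 9 and was also detected on no NSB array (difference 2.14, adjusted p = 4.76e-11). In all 4 genes the PIP day 9 arrays lay above every PIP day 7 array. Where a group had no detection, the fitted difference includes levels not above background and its size and rank are not measured.

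The other 4 genes of that set have known roles in lipid metabolism, chromatin and axon guidance. SMPDL3A, a phosphodiesterase related to acid sphingomyelinase, rose by 2.28 ± 0.10 against 0.00 in NSB. SLC27A2, a fatty acid transporter and acyl-CoA synthetase, rose by 1.35 ± 0.11 and fell by 0.96 in NSB, and ARID5B, a chromatin cofactor, rose by 1.36 ± 0.11 and fell by 0.77 there (adjusted p of the difference 7.58e-11 and 5.08e-10). NRP2, a coreceptor of semaphorins and VEGF, was detected on no PIP day 7 array and read 6.96, 7.23 and 6.96 at day 9, at least 3.58-fold higher, against -0.58 in NSB (difference 2.70, adjusted p = 4.76e-11). Its 2 other probes rose less, by 0.44 and 0.36.

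The 8 genes with the largest step in favour of NSB included several known from neural tissue. BARHL1, a homeobox factor of diencephalon and hindbrain, read 6.83, 6.69 and 6.88 at PIP day 7 and was detected on no PIP day 9 array, at least 2.98-fold lower, while NSB rose by 0.72 (difference -2.56, adjusted p = 1.42e-06). POU3F2, a POU factor of neural progenitors, changed by 0.28 in PIP, which was not called, and rose by 2.20 in NSB (difference -1.92, adjusted p = 6.96e-08). CELF3, a neuronal RNA-binding protein, was detected on no day 7 array of either course. It reached at least 2.49-fold in NSB, and at least 1.07-fold in PIP, where 2 of 3 day 9 arrays detected it (difference -1.24, adjusted p = 3.01e-08). SYNPR, a synaptic vesicle protein, was lost from detection in PIP at day 9, at least 2.12-fold lower, and was detected on no NSB array. TNC, a matrix glycoprotein, rose by 2.22 in NSB and 0.90 in PIP, and MXRA5 and PLCE1 rose in NSB (1.16 and 0.88) against -0.17, not called, and -0.39 in PIP. SEMA5A completed the set (-0.38 in PIP, 0.87 in NSB), but another of its probes rose by 0.58 in PIP, and on the one shown the call was lost without day 7 replicates 1 and 3 or day 9 replicates 1, 2 and 3 in turn (-0.42 to -0.30).

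**Figure D3:**
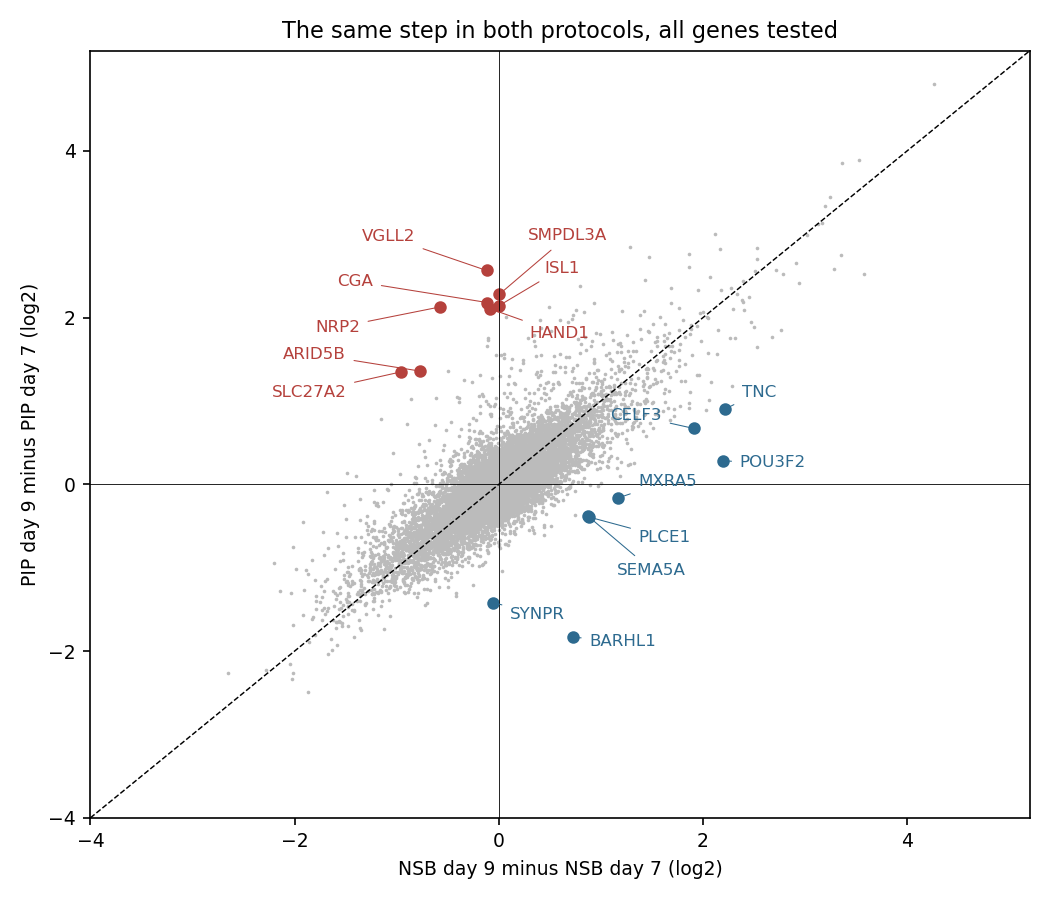
Change from day 7 to day 9 in NSB (horizontal) and PIP (vertical), both in log2, for the 13488 genes tested (grey points), values not above background included; the dashed line marks equal change. Red points are the 8 genes with the largest fitted difference in favour of PIP, such as CGA (2.29), and blue points the 8 in favour of NSB, such as POU3F2 (-1.92). For NRP2, VGLL2, HAND1, ISL1, BARHL1, SYNPR and CELF3 at least 1 group had no detection, so their place in the plot is not a measured size.

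More BMP pathway genes rose than fell at PIP day 9. Of 23 tested, 11 rose, 2 fell and 10 were not called, with a median change of 0.23 (0.13 with median scaling on all probes) against 0.00 over all genes. In limma the difference between steps was called higher in PIP for 12 of the 23 and lower for 0, against 3.85% and 2.56% of all genes (at an unadjusted p under 0.05, 12 higher and 1 lower), and with median scaling on all probes it was called for 5 and 0. MSX1, a homeobox target of BMP at the neural plate border, read 6.83, 6.51 and 6.70 at day 7 and 8.92, 8.56 and 8.40 at day 9 (1.95 ± 0.12, adjusted p = 1.92e-13), and MSX2 read 7.27, 6.80 and 7.11 at day 7 and 8.19, 8.14 and 8.10 at day 9 (1.08 ± 0.12, adjusted p = 1.56e-08). The arrays of the 2 days did not overlap for either gene, and NSB rose by 0.68 for MSX1 and was not called for MSX2 (-0.16). GDF6, a BMP ligand, was detected on no day 7 array and rose at least 2.84-fold, and BAMBI, a decoy receptor that BMP signalling itself induces, rose by 1.09 ± 0.09. The ID genes, direct targets of BMP-activated SMADs that block helix-loop-helix factors, rose in PIP and mostly not in NSB. ID1 read 10.89, 10.96 and 11.06 at day 7 and 11.80, 11.75 and 11.73 at day 9, a rise of 0.79 ± 0.08, while NSB fell by 1.16 (difference 1.94, adjusted p = 1.10e-12). ID3 rose by 0.85 and ID2 by 0.57, against -0.18 (not called) and -0.30 in NSB, and ID4 rose in both, by 0.52 and 0.69. With median scaling on all probes the PIP rise of ID4 was not called (0.38, limma adjusted p = 0.0647). Nor was the difference between steps for ID2 (0.62, limma adjusted p = 0.0877). SMAD6, an inhibitory SMAD, went against the rest and fell by 0.60 ± 0.09 in PIP and by 1.28 in NSB. FST, an antagonist of activin and BMP ligands, fell by 0.32 on its brightest probe, a call lost without day 7 replicate 1 or day 9 replicates 2 and 3 in turn (-0.27 to -0.26). A second probe of FST rose by 0.43.

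Genes of the non-neural ectoderm and border rose in part. Of 15 tested, 8 rose, 1 fell and 6 were not called (median 0.38), and the difference between steps was called higher in PIP for 6 and lower for 1. TFAP2B, an AP-2 factor of border and sensory lineages, read 6.33, 5.97 and 6.08 at day 7 and 7.67, 7.58 and 7.60 at day 9, a rise of 1.49 ± 0.15 (adjusted p = 3.34e-09), and was detected on no NSB array of these days. GATA2 rose by 0.84 ± 0.10 and GATA3, its relative in non-neural ectoderm, by 0.38 ± 0.11 (adjusted p = 0.00535), with day 9 arrays at 7.38, 7.09 and 6.85 against 6.67, 6.71 and 6.80. Without day 9 replicate 1 the GATA3 rise was 0.25 and was not called (adjusted p = 0.0752), nor was it with median scaling on all probes (0.26, adjusted p = 0.129). TFAP2A and the DLX genes differed little. TFAP2A read 10.52 ± 0.13 and 10.60 ± 0.09 (SD, n = 3 each), a difference of 0.08 ± 0.15 that was not called. DLX5 changed by 0.10 ± 0.11, not called, while it rose by 1.19 in NSB (difference -1.09, adjusted p = 2.53e-05), from a lower NSB level of 8.09 to 9.28. DLX3 changed by 0.24 ± 0.12, not called. TFAP2C was the member that fell, by 0.31 ± 0.10, a call lost without day 7 replicate 1 or day 9 replicate 2 in turn (-0.26 to -0.25).

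The preplacodal list was split. Of 14 tested, 6 rose, 3 fell and 5 were not called (median 0.26, or 0.14 with median scaling on all probes). EYA1, a phosphatase and transcriptional coactivator, read 8.95, 8.86 and 8.67 at day 7 and 10.07, 9.97 and 9.88 at day 9 (1.14 ± 0.10, adjusted p = 9.95e-11), a rise larger than its 0.38 in NSB (adjusted p of the difference 3.58e-04, or 0.144 with median scaling on all probes). EYA2 rose by 0.67 ± 0.15 and DACH1, a corepressor of the same network, by 0.74 ± 0.09. PAX8, a factor of the otic placode, rose by 2.09 ± 0.13 in PIP, from 1 of 3 arrays with detection to all 3, and at least 4.94-fold in NSB. SIX3, an anterior factor, fell by 1.23 ± 0.14 and SIX4 by 0.32 ± 0.08, beside the fall of EYA3 given above. In NSB SIX3 fell by 0.50.

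Genes of trophoblast and amnion, which share BMP responsiveness and several factors with non-neural ectoderm, were the list with the highest median. Of 18 tested, 12 rose, 1 fell and 5 were not called (median 0.63, or 0.41 without background correction and 1.15 when only genes detected on at least 3 of these 6 arrays were kept), and in limma the difference between steps was called higher in PIP for 8 and lower for 0 (at an unadjusted p under 0.05, 11 higher and 0 lower). The members that rose include IGFBP3, CGA, ISL1 and HAND1 given above, which are also known in pituitary, neuronal or mesodermal cells. HEY1, a Notch target, rose by 2.72 ± 0.14. VTCN1, an immune checkpoint protein of amnion and trophoblast, was detected on no day 7 array of either course and rose at least 4.96-fold in PIP and at least 1.31-fold in NSB. EPAS1, a hypoxia-inducible factor subunit, rose by 1.21 ± 0.10 in PIP and at least 1.78-fold in NSB. Of the 4 trophoblast markers checked, CGA rose and the rest were undetected or not called. CGB5, the placental hormone's specific subunit, and ERVW-1, the fusogen syncytin, were detected on none of the 6 arrays, and GCM1 changed by -0.25 ± 0.13, not called. The summed linear intensity of the 4 trophoblast markers CGA, GCM1, CGB5 and ERVW-1 went from between 190.2 and 235 at day 7 to between 500.4 and 661.2 at day 9, and its part in these results was not tested.

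**Figure D4:**
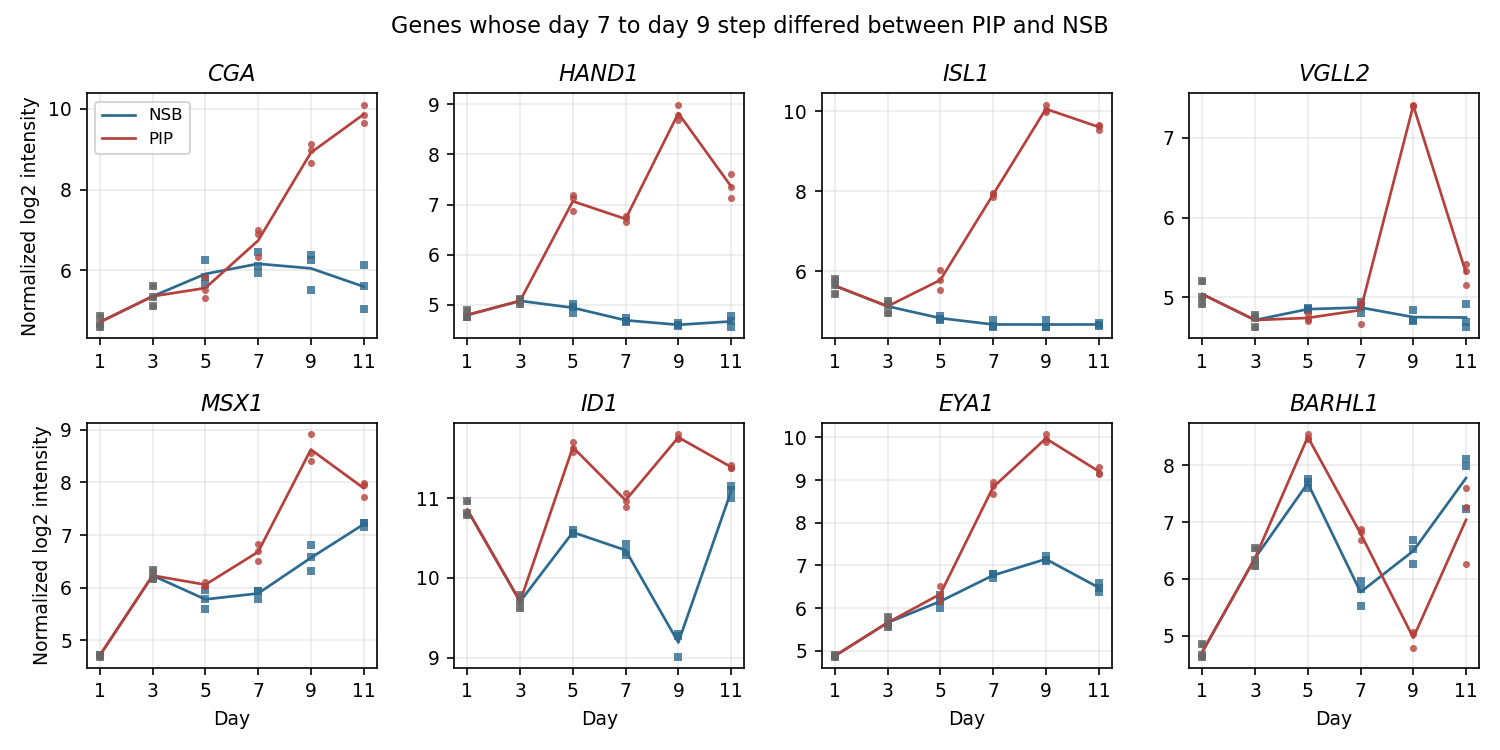
Normalized log2 intensity of 8 genes on every array over days 1 to 11 in PIP (red circles) and NSB (blue squares), with lines through group means and grey points where both courses share days 1 and 3. Between days 7 and 9 the step of CGA, HAND1, ISL1, VGLL2, MSX1, ID1 and EYA1 is higher in PIP than in NSB, and that of BARHL1 is lower.

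Simple epithelial and junction genes moved little as a list, with 9 of 30 higher, 5 lower and 16 not called. The median was 0.10 and turned to -0.00 with median scaling on all probes. In limma the step was higher in PIP than in NSB for 11 of the 30 genes and lower for 0 (at an unadjusted p under 0.05, 13 higher and 3 lower), and with median scaling on all probes it was higher for 3. CLDN1, a tight junction claudin, read 5.33, 4.99 and 5.21 at day 7 and 7.14, 6.91 and 7.09 at day 9 (1.87 ± 0.16, adjusted p = 2.44e-10) and rose at least 1.16-fold in NSB, where no day 7 array detected it (adjusted p of the difference 9.35e-05). EPCAM, an epithelial adhesion molecule, changed by 0.02 ± 0.11 in PIP, not called, and fell by 0.81 in NSB (adjusted p of the difference 8.19e-04, or 0.0726 with median scaling on all probes). ST14, an epithelial membrane protease, rose by 0.79 ± 0.16 and CLDN7 by 0.66 ± 0.11. OVOL2, a repressor that guards epithelial identity, fell by 1.28 ± 0.12 in PIP and by 2.15 in NSB, and ESRP1, an epithelial splicing factor, by 1.03 ± 0.13 and 1.35. CDH1, the epithelial cadherin, read 5.91 ± 0.19 and 5.65 ± 0.11 and was not called (-0.26 ± 0.11), while CDH2, the neural cadherin, rose by 0.39 ± 0.07 from a level of 12.67. CDH2 was not called with median scaling on all probes.

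Lists of placode derivatives changed about as often as all genes, of which 22.5% rose and 23.9% fell. Of 12 sensory neurogenesis genes tested, 3 rose (ISL1, POU4F1 and EBF1; 25%), 2 fell (NEUROG2 and RET; 16.7%) and 7 were not called. POU4F1, a POU factor of sensory neurons, read 6.94, 6.88 and 6.63 at day 7 and 8.26, 7.95 and 7.84 at day 9 (1.20 ± 0.12, adjusted p = 4.13e-09), a larger rise than the 0.40 of NSB (adjusted p of the difference 0.00332). That difference was not called with the deposited processed values (adjusted p = 0.142) or with median scaling on all probes (adjusted p = 0.0653). RET, a receptor of GDNF family ligands, fell by 1.26 ± 0.14. Of 12 lens genes, 3 rose and 2 fell, again 25% and 16.7%. Beside LIM2, the crystallin CRYBA1 and the lens connexin GJA3 were detected on no day 7 array and rose at least 2.33-fold and 2.03-fold. CRYM fell by 0.44 ± 0.14, a call lost without day 7 replicate 2 or day 9 replicate 2 in turn (-0.37 to -0.34). BFSP1, a lens filament protein, was detected on 1 day 7 array and no day 9 array. CRYAA and PITX3, both lens genes, were not called. Of 7 pituitary genes, CGA and SIX6 rose, HESX1 (-0.74 ± 0.17) and OTX2 (-0.75 ± 0.10) fell, and POMC, LHX4 and TBX19 were not called. The 18 neural crest genes showed 9 higher and 4 lower, with ETS1 up by 2.52 ± 0.09 and SNAI2 by 0.81 ± 0.14. SOX10, the crest and otic factor, fell by 0.42 ± 0.17 (adjusted p = 0.048), with all 3 day 9 arrays below the lowest day 7 array, a call lost without day 7 replicates 1 and 3 or day 9 replicates 2 and 3 in turn (-0.41 to -0.35). KIT, the receptor of KITLG, fell by 1.01 ± 0.13.

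Anterior neural and eye field genes moved in both directions, with 12 of 21 higher, 7 lower and 2 not called. NR2F1, a nuclear receptor that patterns the cerebral cortex, read 5.51, 5.01 and 5.44 at day 7 and 7.76, 7.67 and 7.58 at day 9 (2.35 ± 0.12, adjusted p = 8.82e-15). SIX6, an eye and pituitary factor, rose by 1.92 ± 0.12, VAX1 by 1.28 ± 0.19, FEZF2 by 1.27 ± 0.15 and LHX2 by 0.54 ± 0.11. The 7 members that fell were SIX3, HESX1 and OTX2 above, LHX5 (-1.05 ± 0.15), FEZF1 (-0.95 ± 0.12), ZIC2 (-0.70 ± 0.08) and RAX (-0.55 ± 0.18). For RAX, the call was lost without day 7 replicates 2 and 3 or day 9 replicate 1 in turn (-0.49 to -0.42). NSB moved alike for most of them, with 2.28 for NR2F1, -0.81 for OTX2 and -0.60 for LHX5. PAX6 read 9.77, 9.69 and 9.57 at day 7 and 9.80, 10.04 and 9.83 at day 9 and missed the threshold (0.21 ± 0.09, adjusted p = 0.0529). In limma the step was lower in PIP than in NSB for 4 genes, FGF8, SP8, ZIC2 and SIX3, and higher for 0 (at an unadjusted p under 0.05, 1 higher and 7 lower). The SIX3 difference lost its call without any 1 of 6 arrays (-0.73 to -0.58), and also with the deposited processed values, with only the groups compared and with array weights (adjusted p = 0.078, 0.0607 and 0.0599).

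More neural progenitor genes rose than fell. In PIP 11 of 24 were higher, 3 lower and 10 not called (median 0.28, or 0.18 with median scaling on all probes). Beside HES5, FABP7, a lipid-binding protein of radial glia, read 9.32, 9.50 and 9.59 at day 7 and 11.28, 11.33 and 11.36 at day 9 (1.85 ± 0.08, adjusted p = 4.18e-16), and NES, an intermediate filament of progenitors, rose by 1.49 ± 0.12. SOX11 and POU3F1 fell, by 0.81 ± 0.08 and 0.87 ± 0.11, and SOX2, which 2 of the 6 arrays detected, was not called (0.30 ± 0.14). HES5 counts both here and among the Notch genes.

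Notch genes, HES5 included, were mixed. Of 19 tested, 7 were higher, 5 lower and 7 not called, with a median of 0.08 that turned to -0.06 with median scaling on all probes. The ligand JAG1 rose by 0.88 ± 0.09, and LFNG, a glycosyltransferase that tunes the receptor, by 1.03 ± 0.14. The receptor NOTCH1 changed by 0.21 ± 0.16 in PIP, not called, against 1.07 in NSB. The ligand DLL1, which differentiating cells display, fell by 0.34 ± 0.08, and MFNG, a relative of LFNG, by 0.50 ± 0.11. The target HEY1, with the rise given above, also went up, by less than HES5. The target HES4 rose by 0.68 ± 0.10, far less than either.

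Neuronal genes moved in both directions. Of 29, 11 rose (37.9%), 8 fell (27.6%) and 10 were not called, against 22.5% and 23.9% of all genes. SNAP25, a synaptic fusion protein, was detected on no day 7 array and read 7.51, 7.46 and 7.44 at day 9, at least 4.79-fold higher (adjusted p = 1.24e-16). STMN4 and INA, cytoskeletal proteins of neurons, rose at least 1.79-fold and by 1.07 ± 0.08. ROBO3, a guidance receptor of commissural axons, fell by 1.40 ± 0.11 and RTN1 by 1.00 ± 0.09. NSB moved the same way, by 2.91 for SNAP25, 1.00 for INA, -1.36 for ROBO3 and -1.26 for RTN1.

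Genes of the FGF and ERK cascade rose. Of 23, 14 were higher, 4 lower and 5 not called (median 0.39). The negative feedback genes that ERK induces led the list. DUSP6, an ERK phosphatase, read 6.23, 5.35 and 5.53 at day 7 and 7.34, 7.66 and 7.94 at day 9 (1.94 ± 0.19, adjusted p = 1.48e-09), and DUSP5 rose by 1.70 ± 0.09. The inhibitors SPRY1 and SPRY2 rose by 1.20 ± 0.09 and 1.15 ± 0.11, and ETV5, an ETS factor downstream of FGF, by 1.65 ± 0.11. Among ligands FGF9 rose by 1.29 ± 0.11 and FGF8 by 0.77 ± 0.15. The receptors went the other way, with FGFR4 lower by 1.27 ± 0.13, FGFR3 by 1.19 ± 0.08 and FGFR1 by 0.75 ± 0.12. DUSP6 had returned to 5.38 at PIP day 11. In NSB 14 rose and 4 fell too, with larger values for DUSP6 (2.47) and ETV5 (2.53), and the difference was called for ETV5 (adjusted p = 3.18e-04) and not for DUSP6 (adjusted p = 0.262). DUSP4 depends on the probe, with 0.85 on the brightest and -0.94 on another.

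Immediate early genes, which growth factor and serum signals switch on without new protein synthesis, rose as well, with 13 of 21 higher, 1 lower and 7 not called. IER3 read 7.48, 7.41 and 7.50 at day 7 and 9.18, 9.09 and 9.27 at day 9 (1.72 ± 0.10, adjusted p = 1.00e-13), DUSP1 rose by 1.08 ± 0.09 and JUN by 0.76 ± 0.16, and GADD45B was the member that fell (-0.54 ± 0.12). EGR1, a zinc finger factor induced through ERK, read 8.59, 7.96 and 8.29 at day 7 and 8.91, 9.11 and 9.06 at day 9 (0.75 ± 0.17, adjusted p = 6.96e-04). It fell by 0.47 in NSB, and the steps differed by 1.22 (adjusted p = 0.0016). FOS and FOSB, from the same class, were not called. The EGR1 promoter is shown because EGR1 is the gene of this class whose course differed most between the protocols, and its CArG boxes are the sites of serum response factor (RefSeq, GRCh38.p14, chr5:138465229-138465528, plus strand, the same window). The capitals mark the CArG boxes, searched on both strands.
EGR1: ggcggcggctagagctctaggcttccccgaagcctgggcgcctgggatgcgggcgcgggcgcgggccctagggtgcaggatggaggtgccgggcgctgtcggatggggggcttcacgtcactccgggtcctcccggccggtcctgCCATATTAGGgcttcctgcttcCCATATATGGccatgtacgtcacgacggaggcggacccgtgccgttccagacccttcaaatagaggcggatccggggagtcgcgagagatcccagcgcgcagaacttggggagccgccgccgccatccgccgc
This window holds 2 CArG boxes, 105 and 83 bases before the start, and 1.29% of the 35116 promoters hold at least 1. Binding was not measured here either.

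Of 18 genes of the retinoic acid and HOX list, 8 rose (44.4%) and 3 fell (16.7%), against 22.5% and 23.9% of all genes, or 7 and 4 with median scaling on all probes. ALDH1A1, an enzyme that makes retinoic acid, read 5.38, 5.51 and 5.28 at day 7 and 7.60, 7.40 and 7.56 at day 9 (2.13 ± 0.17, adjusted p = 6.28e-11), and ALDH1A3 read 6.61, 6.32 and 6.60 at day 7 and 7.64, 7.94 and 7.65 at day 9 (1.23 ± 0.11, adjusted p = 2.73e-10). NSB changed by 0.49 and -0.26, and both differences were called (adjusted p = 4.61e-05 and 1.14e-07). ALDH1A2, another of these enzymes, rose by 0.54 ± 0.13, while RDH10, which makes retinaldehyde, fell by 0.40 ± 0.10, and neither differed from NSB by a call (adjusted p = 0.224 and 0.894). MEIS1 and MEIS2, cofactors of HOX proteins, rose by 1.75 ± 0.09 and 0.98 ± 0.08. DHRS3, which reduces retinaldehyde, fell by 0.59 ± 0.13 and CYP26A1, which degrades retinoic acid, by 0.52 ± 0.09. HOXA2 and HOXB1 were not called.

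WNT genes moved in both directions, with 7 of 29 higher (24.1%), 10 lower (34.5%) and 12 not called (median -0.10, or 0.03 without day 7 replicate 3). With median scaling on probes detected on all arrays 9 were higher and 8 lower. SP5, a direct target of WNT signalling, fell by 1.51 ± 0.16 and DKK1, a secreted antagonist and target, by 1.07 ± 0.17. WNT5B rose by 1.52 ± 0.10 and LEF1, a nuclear effector, by 0.78 ± 0.13, while AXIN2, a common readout, changed by -0.18 ± 0.11, not called. WNT5A and RSPO3 changed by 0.13 and -0.18 in PIP, neither called, and fell in NSB by 1.49 and 1.36 (adjusted p of the difference 3.66e-06 and 1.08e-05). Of 10 Hedgehog genes 2 rose and 2 fell. PTCH1, receptor and target, fell by 1.04 ± 0.14 in PIP against 0.03 in NSB (adjusted p of the difference 5.82e-04), and GLI1, the other common target, went from 2 arrays with detection at day 7 to none at day 9, a fall of at least 1.18-fold.

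Adhesion and guidance genes rose more often than they fell, with 13 of 29 higher, 3 lower and 13 not called (median 0.27). KITLG, the ligand of KIT, was detected on no day 7 array and read 7.29, 7.62 and 7.59 at day 9, at least 4.90-fold higher (adjusted p = 3.89e-14). Of the receptors for the chemokine CXCL12, the scavenger ACKR3 rose by 1.80 ± 0.10 and CXCR4 by 1.42 ± 0.11, and both rises were called in NSB too (0.99 and 1.16). SEMA3C, a secreted semaphorin that binds NRP2, was detected on 1 day 7 array and all 3 day 9 arrays and rose in the fit (adjusted p = 2.60e-14). No NSB array detected it (adjusted p of the difference 2.29e-10). SLIT2, a repellent read by ROBO receptors, rose by 1.36 ± 0.12, and its receptor ROBO1 fell by 0.39 ± 0.11.

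Genes of the ATF4 amino acid response, a programme that ATF4 switches on when amino acids are short or translation is stressed, rose more often than they fell. Of 35 genes tested, 25 rose, 3 fell and 7 were not called (median 0.44), and with median scaling on all probes 15 rose and 2 fell. SLC1A4, a transporter of alanine, serine and cysteine, was detected on no day 7 array and read 7.08, 7.11 and 7.06 at day 9, at least 3.67-fold higher (adjusted p = 1.29e-14). ATF5, a relative of ATF4, rose by 1.56 ± 0.09, TRIB3, a feedback pseudokinase, by 1.33 ± 0.14, and PSPH, the last enzyme of serine synthesis, by 1.04 ± 0.13. ASNS, asparagine synthetase, rose by 0.33 ± 0.09, which was not called with median scaling on all probes (0.25, adjusted p = 0.182), and the probes of ATF4 itself disagreed, with 0.18 on the brightest and -0.94 on a dimmer one. CHAC1, another textbook target, was not called (0.00 ± 0.11). AARS1, CTH and PCK2 were the members that fell (-0.42, -0.42 and -0.26), and for PCK2, the call was lost without day 7 replicates 1 and 3 or day 9 replicate 2 in turn (-0.25 to -0.20). In NSB 20 rose and 4 fell, and the difference between steps was called for 2 members, higher in PIP for SLC1A4 (adjusted p = 5.22e-04) and lower for DDIT4, which rose by 0.91 in PIP and 1.66 in NSB. In PIP the list's median change from day 9 to day 11 was -0.14, with 5 higher and 17 lower.

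Heat shock genes rose with it, with 9 of 17 higher, 1 lower and 7 not called. HSPH1, an HSP110 chaperone, rose by 1.20 ± 0.06, CHORDC1, an HSP90 cochaperone, by 0.90 ± 0.10, and HSPA1A and DNAJB1 by 0.87 ± 0.12 and 0.80 ± 0.08. HSPA4 fell by 0.31 ± 0.12, a call lost without day 7 replicates 1 and 2 or day 9 replicates 2 and 3 in turn (-0.29 to -0.23). HSPA1A and HSPA1B are near-identical genes whose probes may not tell them apart.

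Some hypoxia and glycolysis genes rose less in PIP than in NSB. In PIP 14 of 33 were higher, 5 lower and 14 not called (median 0.13, or 0.03 with median scaling on all probes), and in limma the step was lower than in NSB for 6, higher for 0 and not called different for 27, against 2.56% and 3.85% of all genes (at an unadjusted p under 0.05, 1 higher and 12 lower). SLC2A1, the glucose transporter GLUT1, read 7.24, 7.17 and 7.28 at day 7 and 9.61, 9.67 and 9.97 at day 9 (2.52 ± 0.11, adjusted p = 4.18e-16) against 3.58 in NSB, and ADM, a vasodilator peptide induced by hypoxia, rose by 1.88 ± 0.12 against 2.50. The ADM difference lost its call without any 1 of 7 arrays (-0.62 to -0.47). HK2 rose by 0.92 ± 0.11 against 1.87, while its relative HK1 fell by 0.70 ± 0.08. ENO2 fell by 1.06 ± 0.10 and GAPDH was not called.

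Pluripotency genes fell or were not called. In limma, of 25 genes 0 rose, 13 fell and 12 were not called (median -0.32), against 22.5% of all genes higher and 23.9% lower. At an unadjusted p under 0.05 the counts were 1 higher and 15 lower. With median scaling on probes detected on all arrays 1 rose and 10 fell. POU5F1, the core factor OCT4, read 9.57, 9.32 and 9.47 at day 7 and 8.69, 8.69 and 8.78 at day 9 (-0.73 ± 0.09, adjusted p = 1.44e-07), and stood at 6.82 on day 11. PHC1, a polycomb subunit high in stem cells, fell by 1.04 ± 0.07, DNMT3B, the de novo DNA methyltransferase, by 0.88 ± 0.10, UTF1 by 0.85 ± 0.16 and SALL4 by 0.83 ± 0.12. NANOG, with means of 5.75 and 5.66, was not called. POU5F1 has close pseudogenes that its probes may also read.

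More cell cycle genes fell than rose. Of 34, 4 rose, 16 fell and 14 were not called (median -0.18, or -0.28 with median scaling on all probes). BUB1, a spindle checkpoint kinase, read 11.37, 11.37 and 11.29 at day 7 and 10.28, 10.14 and 10.10 at day 9 (-1.17 ± 0.11, adjusted p = 5.35e-10), TOP2A, which untangles DNA before mitosis, fell by 1.07 ± 0.09, AURKB by 1.00 ± 0.08 and PLK1 by 0.85 ± 0.12. The 4 that rose were CCNE2 (0.94 ± 0.13), RRM2 (0.73 ± 0.14) and CDC6 (0.50 ± 0.10), which act around S phase, and the inhibitor CDKN1A (0.70 ± 0.08). The steps of PIP and NSB were called different for 0 of the 34 genes in limma (at an unadjusted p under 0.05, 3 higher and 5 lower).

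Lipid genes moved in opposite groups. Fatty acid synthesis genes fell, with 2 of 17 higher, 11 lower and 4 not called (median -0.31). MLXIPL and ACACB, which makes the malonyl-CoA that regulates fatty acid oxidation, fell by 1.12 ± 0.14 and 0.92 ± 0.21, ELOVL5 by 0.64 ± 0.08 and SREBF1, the sterol-regulated factor of the pathway, by 0.58 ± 0.10. FADS2 and ME1 rose by 0.39 and 0.33. For FADS2, the call was lost without day 7 replicates 1 and 2 or day 9 replicates 2 and 3 in turn (0.29 to 0.40), and for ME1, the call was lost without day 7 replicates 2 and 3 or day 9 replicates 1 and 2 in turn (0.29 to 0.31). Cholesterol synthesis genes rose, with 12 of 24 higher, 4 lower and 8 not called (median 0.25), but with median scaling on all probes 3 were higher and 5 lower (median 0.11). MVK and IDI1, enzymes of the mevalonate branch, rose by 0.54 ± 0.12 and 0.53 ± 0.11, and TM7SF2 fell by 0.60 ± 0.09. IDI1 was not called with median scaling on all probes (0.39, limma adjusted p = 0.0643). By PIP day 11 the cholesterol list had a median change of -0.34 from day 9, with 1 higher and 12 lower, against 23.9% and 23.7% of all genes.

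Extracellular matrix genes fell more often than they rose, with 11 of 39 higher, 20 lower and 8 not called (median -0.22), or 13 and 15 with median scaling on probes detected on all arrays. GPC4, a cell surface proteoglycan, fell by 0.88 ± 0.13, and FBLN2 and COL6A2 by 0.80 ± 0.13 and 0.75 ± 0.11. SULF1, COL2A1 (1.44 ± 0.10) and COL11A1 (0.97 ± 0.09) rose, the last 2 being fibrillar collagens of cartilage. Basement membrane collagen COL4A1 fell by 0.27 ± 0.07 in PIP and rose by 0.29 in NSB, but the PIP call was lost with median scaling on probes detected on all arrays (-0.18, adjusted p = 0.0539). At day 11 the direction of the list had turned, with 21 higher and 7 lower than at day 9, against 23.9% and 23.7% of all genes.

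Of 10 skeletal and heart muscle genes, 3 rose, 0 fell and 7 were not called in limma (at an unadjusted p under 0.05, 4 higher and 0 lower), against 22.5% and 23.9% of all genes. The 3 that rose were ACTC1, MYL7 and MYL4. ACTC1, the cardiac actin, read 8.42, 8.53 and 8.69 at day 7 and 10.64, 10.66 and 10.66 at day 9 (2.11 ± 0.13, adjusted p = 2.00e-13), and the atrial light chain MYL7, detected on no day 7 array, rose at least 2.50-fold and its relative MYL4 by 1.24 ± 0.13. The members that were not called include MYH6, MYH7, MYOD1 and ACTN2. The summed linear intensity of the muscle markers MYOD1, ACTC1 and MYH6 went from between 423.2 and 488.9 at day 7 to between 1683 and 1699 at day 9, while MYOD1 changed by -0.03 and MYH6 by -0.00, neither called. Of the 16 mesenchyme genes 8 rose and 4 fell, COL1A1 by 0.74 ± 0.12 and COL6A3 by 1.22 ± 0.13 among the rises and PDGFRB by 0.47 ± 0.12 among the falls. LUM and POSTN, fibroblast markers, were detected on none of the 6 arrays. The part of such cells in these results was not tested.

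The list of MHC class I and interferon genes moved in both directions. Of 25, 7 rose (28%), 9 fell (36%) and 9 were not called, against 22.5% and 23.9% of all genes. TAP2, TAP1 and PSMB8, which make and carry peptides for MHC class I, fell by 1.52 ± 0.09, 1.10 ± 0.11 and 1.15 ± 0.12. IFIT1 and ISG20, interferon-induced antiviral proteins, rose by 1.80 ± 0.16 and 0.92 ± 0.13. B2M, HLA-B and HLA-C were not called.

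**Figure D5:**
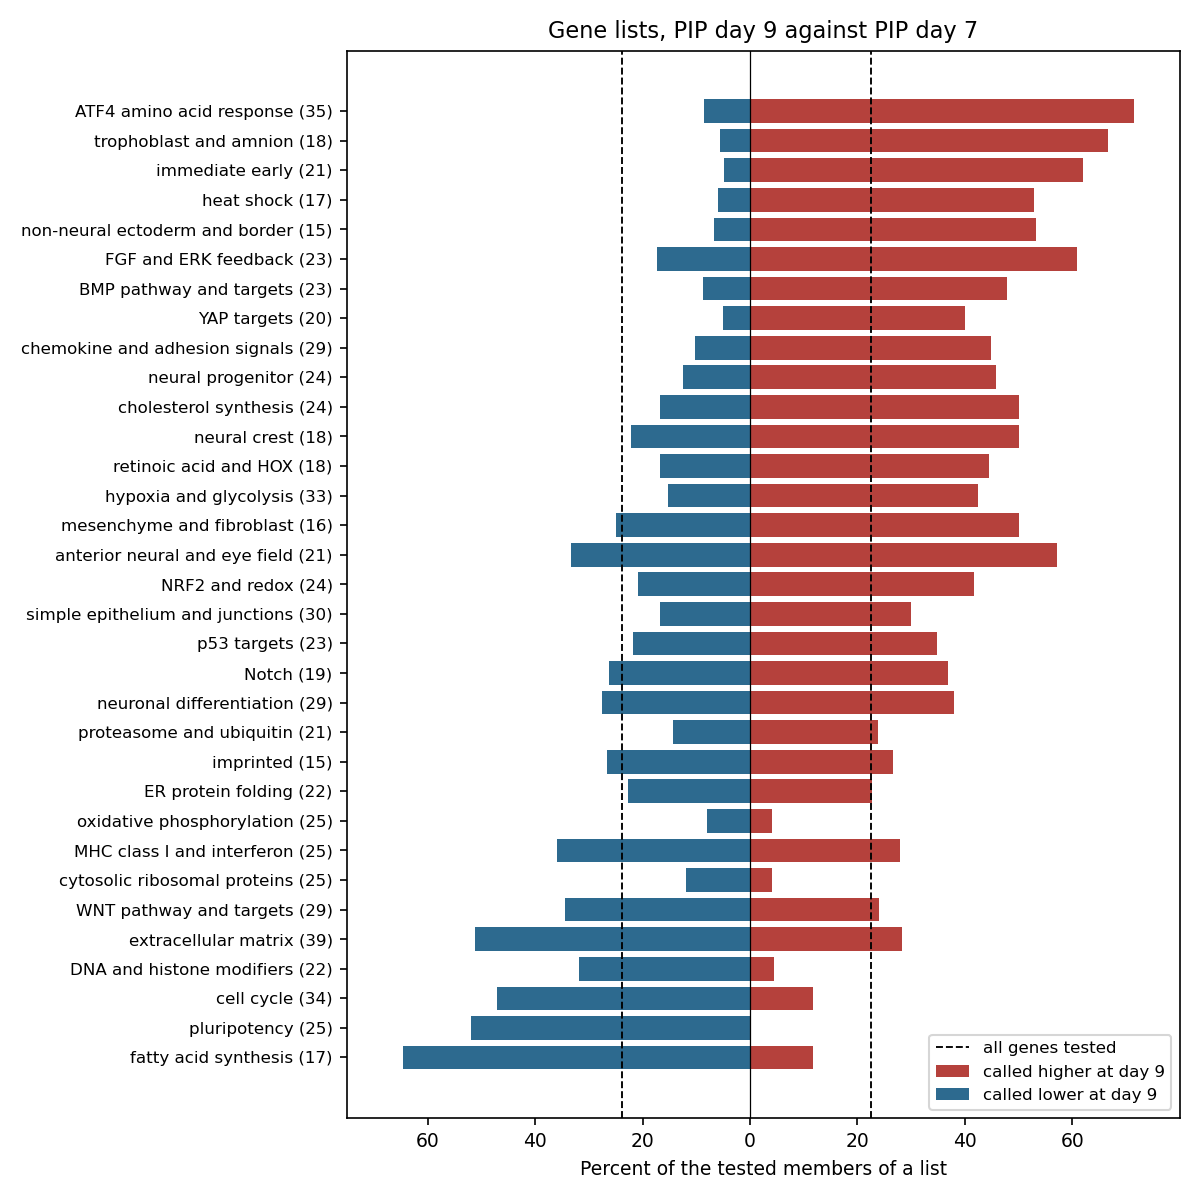
Percent of the tested members of each gene list called higher (red, to the right) and lower (blue, to the left) at PIP day 9 than at day 7, for lists of at least 15 tested genes (number in brackets), ordered by the difference. Dashed lines mark all genes tested, at 22.5% higher and 23.9% lower; the ATF4 list reaches 71.4% higher and fatty acid synthesis 64.7% lower.

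Of the remaining lists, those of ribosomal proteins and oxidative phosphorylation had the smallest shares of called genes. Of 25 cytosolic ribosomal protein genes 1 rose and 3 fell, and of 25 oxidative phosphorylation genes 1 rose and 2 fell, both below the shares of all genes. With median scaling on all probes 9 ribosomal genes fell and 0 rose. The proteasome list had 5 of 21 higher (23.8%) and 3 lower (14.3%), and protein folding in the endoplasmic reticulum 5 higher and 5 lower of 22 (22.7% each). All genes stood at 22.5% and 23.9%. Genes of DNA and histone modification had 1 higher and 7 lower of 22 (4.55% and 31.8%), and YAP targets 8 and 1 of 20 (40% and 5%). The p53 targets had 8 and 5 of 23 (34.8% and 21.7%), and NRF2 and redox genes 10 and 5 of 24 (41.7% and 20.8%). Metallothionein and zinc genes had 5 and 2 of 11 (45.5% and 18.2%). Iron genes had 2 higher and 5 lower of 9 (22.2% and 55.6%), and imprinted genes 4 and 4 of 15 (26.7% each). Of lists for other lineages, mesendoderm had 2 higher and 1 lower of 9, endothelium and blood 3 and 2 of 8, epidermis 2 and 2 of 5, and Nodal and activin targets 1 and 1 of 10.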

How the data were processed

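Total RNA was measured on 30 Illumina bead arrays, 3 in each of 10 groups, and each set of 3 is labelled as biological replicates. Per the file headers, the authors' GenomeStudio export holds a mean bead intensity per probe, not background-subtracted or normalized, with a detection p-value against the array background and the bead count of each probe. A second deposited table of processed intensity values was used as an alternative. The submitters' processing notes give no version of GenomeStudio. The design text names a newer array type than the probe set fits, and genes were named through the platform annotation given here. Of 48701 probes, 23687 had 1 gene name, 35 had several and 24979 had none.

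Intensities were corrected by normexp from the detection p-values (offset 16) and quantile normalized over all 30 arrays with limma 3.58.1 in R 4.3.3. Each gene took its brightest probe among those detected on at least 3 arrays, which left 13488 genes. One limma fit of the 10 group means (20 residual degrees of freedom) gave every comparison, with p-values adjusted over all genes. The columns of day 3 and both day 5 groups join a pair of sample codes, so these arrays may hold pooled samples. Their median SDs between arrays (0.0624 to 0.086) are the lowest of the 10 groups, and they enter every standard error. Only the fitting code was checked on simulated data, with changes planted at PIP day 9, and no result given here rests on it. Where no array of a group detected a gene, the bound takes the lowest detected level of each of its arrays. The 3 arrays a group limit the precision. The alternatives changed the background correction, scaling, filter, probe choice, arrays fitted and array weights, added the replicate number, or left out 1 array. Genes were named by rule: the 12 largest rises and falls, up to 4 members of each list and any against its trend, the 8 largest differences between steps each way, and a set of marker genes. Another 89 genes were named after their values were seen. Genes and lists were chosen with earlier results of these data known, and the lists share members.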

Additional observations from a re-analysis of the deposited data

Results flagged for a closer look

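Of the 295 genes named here, including those chosen after their values were seen, 78 were called in limma for a difference between the PIP and NSB steps from day 7 to day 9, and 35 of them differed by at least 2-fold. The values below are the PIP step minus the NSB step in log2. They are descriptions of genes chosen in large part for this difference, and they share the 12 arrays of days 7 and 9. For 12 of the 35 (VGLL2, HAND1, ISL1, NRP2, TFAP2B, MSX2, SEMA3C, VTCN1, CLDN1, BARHL1, SYNPR and CELF3) at least 1 of the 4 groups had no detection, so their fitted values include levels not above background and have no order.

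Transcription factors and cofactors stood at 2.68 for VGLL2, 2.20 for HAND1, 2.14 for ISL1, 2.12 for ARID5B, 1.27 for MSX1, 1.26 for TFAP2B, 1.25 for HEY1, 1.24 for MSX2 and 1.22 for EGR1. The helix-loop-helix inhibitors ID1 and ID3 stood at 1.94 and 1.04. Signals and receptors stood at 2.70 for NRP2, 2.29 for CGA, 1.77 for SEMA3C, 1.62 for WNT5A, 1.57 for VTCN1, 1.56 for ANGPT2 and 1.18 for RSPO3. Enzymes and transporters were at 2.31 for SLC27A2, 2.27 for SMPDL3A, 1.64 for ALDH1A1 and 1.49 for ALDH1A3, and the claudins CLDN1 and CLDN7 at 1.46 and 1.03.

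In the other direction BARHL1 stood at -2.56, POU3F2 at -1.92 and DLX5 at -1.09 among transcription factors. The neuronal genes SYNPR and CELF3 were at -1.36 and -1.24, the matrix genes MXRA5 and TNC at -1.33 and -1.31, and PLCE1, SEMA5A, PTCH1 and SLC2A1 at -1.27, -1.26, -1.07 and -1.05. Without replicate 1 of NSB day 7 more genes were called for this difference, as given below.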

How the results depend on the processing

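The count of genes called between PIP day 7 and day 9 stayed within 1.5 times of 6265 under every alternative run, and was 5647 to 5695 when 1 array was left out. The count for the difference between steps was less stable. It was 864, but 491 with only the groups compared, 569 with array weights, 535 without the day 3 and both day 5 groups (an alternative chosen after seeing the data, under which 5717 genes were called for the PIP step), and 647 to 1433 when 1 array was left out, the highest without replicate 1 of NSB day 7. Median scaling moved the balance of directions as given above, with the median of all genes at -0.07 (all probes) and 0.08 (probes detected on all arrays) for the PIP step. Leaving out 1 array gave 5852 to 6382 calls for NSB, 5803 to 5979 for PIP day 11 against day 9, 4518 to 4736 for day 11 against day 7, and 5849 to 6463 for day 9 against the mean of days 7 and 11. With the mean of all probes of a gene, FST stood at 0.0558, SEMA5A at 0.0966, ATF4 at -0.3764 and DUSP4 at -0.0475, against the sign of their brightest probes, since their probes disagree. Of genes with 2 or more probes, 58 of 1613 had opposite calls by 2 probes.

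The labels number the replicates alike in both groups, but same-numbered arrays did not deviate together (correlations of 0.032, 0.022 and 0.030), so the numbers were not taken as pairs. With the replicate block 6180 genes were called for the PIP step and 812 for the difference. A slide block was not run because the files name no slides. The 3 arrays a group and the dim level of many regulators limit what a missed call says, and the handling of each day was not recorded in the sources used here.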
